A study of Mus musculus with 18 samples.

Results

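The interval described here is a stretch of 279 bp in the first coding exon of Zbtb7b, the gene of the transcription factor ThPOK, at chr3:89184744-89185022 in the mm9 (NCBIM37) mouse assembly. Its members were chosen by position alone. All CpG cytosines inside the interval that had read-outs in each of the 18 libraries were taken, which gave 28 cytosines, the 2 strands of 14 CpGs, of the 64 CpG cytosines covered in every library of the series. The series holds DNA of C57/BL6 female mice aged 4 to 6 weeks at 3 stages of T-cell development. Double positive (DP) cells, stained for CD4 and CD8, and CD4 single positive (CD4 SP) cells, high for CD3 and intermediate to low for CD24, were sorted from thymus, and naive CD4 cells, high for CD62L, negative for CD25 and low for CD44, were sorted from pooled spleen and lymph nodes. At each stage 3 libraries were made by bisulfite sequencing (BS) and 3 by oxidative bisulfite sequencing (oxBS), all from PCR amplicons of loci that the study had picked because an antibody-based assay showed changing 5hmC there. No expression was measured, so the sorted identities could not be checked against marker genes in these files.

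ThPOK is a zinc finger protein with a BTB domain that directs MHC class II-restricted thymocytes to the CD4 helper lineage, and its gene is switched on as DP thymocytes are selected towards that fate. DNA methylation at CpGs is laid down as 5-methylcytosine (5mC) and is usually symmetric between the strands, since the maintenance methyltransferase copies it onto the new strand after replication. TET enzymes oxidise 5mC to 5-hydroxymethylcytosine (5hmC), an intermediate on the way back to unmodified cytosine, and 5hmC need not be present on both strands of a CpG. Bisulfite leaves both 5mC and 5hmC unconverted, so a BS library reads their sum. The oxidation step of oxBS makes 5hmC convertible, so an oxBS library reads 5mC, and the BS share minus the oxBS share is an estimate of 5hmC.

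The interval is printed because all values below refer to its CpGs, which are in capitals. It is the forward strand of chr3:89184744-89185022, 5′ to 3′, taken from the NCBIM37 reference.

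Zbtb7b interval: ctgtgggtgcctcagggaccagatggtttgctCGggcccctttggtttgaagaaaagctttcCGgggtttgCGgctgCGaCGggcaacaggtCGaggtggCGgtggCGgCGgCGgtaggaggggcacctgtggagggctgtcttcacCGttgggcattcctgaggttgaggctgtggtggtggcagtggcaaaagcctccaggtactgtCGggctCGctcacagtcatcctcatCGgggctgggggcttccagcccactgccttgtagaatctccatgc

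Zbtb7b (ENSMUSG00000028042.8) is transcribed from the reverse strand, from 89198698 down to 89181566, so the printed letters are the template strand and the reverse strand is the coding one. The interval lies wholly in coding sequence in all 5 annotated coding transcripts that overlap it. It begins 409 bases after the first base of the start codon and covers codons 137 to 230 of 544. The 14 CpGs are numbered here in the order of the printed letters, from CpG 1 at 89184776 to CpG 14 at 89184978, each with a forward cytosine at that position and a reverse cytosine at the next base. CpGs 1 to 10 lie between bases 32 and 112 of the interval and CpGs 12 to 14 between bases 209 and 234, with CpG 11 alone between them at base 147. In 8 of the CpGs the C and G are the first bases of an arginine codon, in 4 (CpGs 7 to 10) they end the proline codon CCG, and in 2 (CpGs 11 and 14) they span neighbouring codons. The interval has a GC content of 62.7% and an observed to expected CpG ratio of 0.531.

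Over all loci the libraries held 3450894 to 8602209 cytosine read-outs. The 28 cytosines had 701 to 3994 read-outs each per library, with medians of 2316.5 (forward strand) and 2461 (reverse strand). The 95% Wilson interval of a single share reached 0.591 to 3.47 percentage points to either side, with a median of 1.53, which covers counting error only, since PCR read-outs are not independent molecules. A count of 0 would have allowed a share of up to 0.102 to 0.428% at the thinnest cytosine of a library. In the spiked lambda controls the unconverted share was 0.0392 to 0.0683% for unmodified DNA and 99.3 to 99.5% for 5mC DNA. The 5hmC control read 6.16% ± 0.515 unconverted in the BS and 1.04% ± 0.284 in the oxBS libraries (SD, n = 9 each). Most of its unconverted share was thus lost on oxidation. Its level was low and how much of it was 5mC is not known, so it gives no direct value for the oxidation of 5hmC. At the 141 cytosines of the interval outside CpGs, where little methylation is known in T cells, group means of the unconverted share were 0.180 to 0.245% and are taken here as background.

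Libraries of the same stage and assay resembled each other at these background cytosines as well. Of the 141, 29 had more than 1% unconverted read-outs in at least 1 library, and 12 of those were above 1% in all 3 libraries of some group. The reverse cytosine at 89184922 had 3.29, 3.08 and 3.21% in the naive CD4 oxBS libraries and 0 to 0.306% in the other 15 libraries. The forward cytosine at 89184871 had 2.03, 2.60 and 1.92% in the same 3 libraries and 0 to 0.322% elsewhere. Both traces were thus shared by the libraries of a group and were below 1% in the BS libraries of the same stage, whereas the reverse cytosine at 89184925 was above 1% in both assays of CD4 SP. With the shares centred per cytosine, the mean Pearson correlation across the 141 cytosines was 0.837 between libraries of a group (18 pairs) and 0.0265 between a BS library and the oxBS library of the same stage and number (9 pairs, median 0.143, from -0.364 to 0.269). Libraries of different stages had a mean of -0.212 (108 pairs), so the centred shares do not have 0 as their reference. At the 28 CpG cytosines the same 3 means were 0.915, -0.0664 and -0.201. In addition, the CpG counts of DP BS libraries 2 and 3 agreed within sampling noise over all 64 cytosines, as did those of CD4 SP oxBS libraries 2 and 3. The study's methods describe 3 cell isolations from independent mice per stage. Whether the libraries of a group came from separate treatments of separate DNA was not tested, and p-values below measure the spread between these libraries only, which may be technical.

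**Figure D1:**
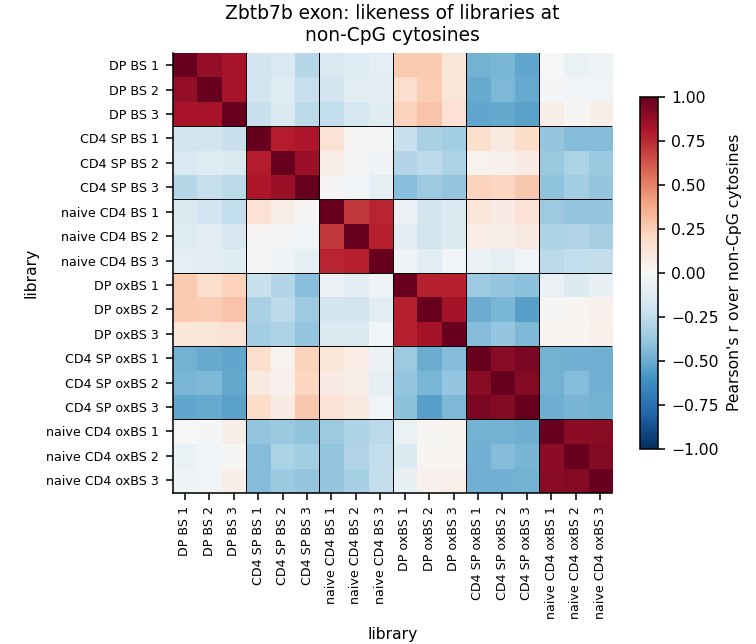
Pearson's r between all pairs of the 18 libraries (both axes, 3 libraries per group, groups parted by lines) over the 141 non-CpG cytosines of the Zbtb7b interval, from -1 (blue) to 1 (red). The 6 blocks of 3 libraries on the diagonal are the strongest red, with r from 0.703 to 0.944; between the assays of a stage r lies between -0.396 and 0.284, and it is below 0 throughout for naive CD4.

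The first comparison asks how far the exon lost total modification and 5mC from stage to stage. The exon was highly modified in DP cells and lost little in CD4 SP cells and more in naive CD4 cells. The BS share, as the mean over the 28 cytosines, was 88.3, 88.2 and 88.3% in the DP libraries, 85.1, 85.2 and 85.5% in the CD4 SP libraries and 76.4, 74.7 and 75.7% in those of naive CD4. The oxBS share was 82.8, 81.9 and 83.8% for DP, 79.9, 81.9 and 82.1% for CD4 SP and 73.9, 72.9 and 73.2% for naive CD4. In BS the 3 stages did not overlap. In oxBS the DP and CD4 SP libraries overlapped, and the naive CD4 libraries lay below all others. The BS share fell by 3.00 points from DP to CD4 SP and fell by 9.69 points from CD4 SP to naive CD4 (two-sided exact permutation test over the stages, p = 0.00357, adjusted p = 0.0107). The oxBS share fell by 1.54 points and fell by 7.98 points over the same steps (two-sided exact permutation test, p = 0.00714, adjusted p = 0.0107). With libraries 2 and 3 of every group counted as 1, the differences between DP and naive CD4 were -12.5 points in BS and -9.37 points in oxBS, and the exact permutation p of both was 0.0667, the smallest that this layout allows. With only the pairs of libraries that agreed within sampling noise counted as 1, they were -12.7 points (exact permutation, adjusted p = 0.0107) and -9.51 points (exact permutation, adjusted p = 0.0161).

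All 28 cytosines fell in BS between DP and naive CD4, by 5.23 to 30.9 points with a median of -12.0. The median over all 64 CpG cytosines of the series was -22.3 points. edgeR's quasi-likelihood test with Benjamini-Hochberg adjustment over the 64 called 28 of 28 lower, against a background of 89.1% lower and 6.25% higher among all 64, so the share of called members was close to that of the series. In oxBS it called 25 of 28 lower and 1 higher, against a background of 87.5% and 6.25%, with a median change of -9.65 points at Zbtb7b and -14.2 over all 64. Most of the loss fell in the second step. From CD4 SP to naive CD4 the test called 28 lower in BS (background 90.6% lower and 1.56% higher) and 24 lower and 1 higher in oxBS (background 87.5% and 1.56%). The median changes of this step were -9.32 points in BS and -6.63 in oxBS. From DP to CD4 SP the changes were small and mixed in sign, with medians of -3.29 points in BS and -2.14 in oxBS. There 19 were called lower and 2 higher in BS (background 73.4% and 6.25%) and 15 lower and 4 higher in oxBS (background 56.2% and 17.2%). When a change of at least 5 points in either direction was required, 8 were called in BS and 7 in oxBS at this step. The background under the same rule was 53.1% and 43.8% of the 64. Among these members CpG 2 reverse rose in BS (6.13 points). In oxBS CpG 8 reverse (5.38 points), CpG 9 reverse (5.15) and CpG 11 forward (9.01) rose, and the rest fell. From CD4 SP to naive CD4 the rule left 20 calls in BS (background 79.7%) and 20 in oxBS (background 76.6%), and from DP to naive CD4 it left 28 (background 92.2%) and 21 (background 82.8%).

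The model of the study weighs BS and oxBS read-outs together and gives a Bayes factor for a change in the proportions of cytosine, 5mC and 5hmC. Like edgeR it allows for variation between replicates, for which it sets a fixed prior. Few Zbtb7b cytosines passed 1 on this scale. From DP to CD4 SP 0 of 28 did, with factors of 0.00653 to 0.208, against a background of 25.0% of the 64, while edgeR called 21 members in BS and 19 in oxBS for the same stages. From CD4 SP to naive CD4 it was 1 of 28 (background 26.6%), the reverse cytosine of CpG 12, with a factor of 1.06. From DP to naive CD4 it was also 1 of 28 (background 40.6%), the forward cytosine of CpG 5, with a factor of 1.78. The highest factor was thus small for every pair of stages, and the medians were 0.0352, 0.0555 and 0.0796. For CpG 5 forward in DP the model's estimate of 5mC had an SD of 10.2 points. The oxBS shares of the 28 cytosines had a median SD of 1.11 points between DP libraries. How far the prior set the low factors was not tested. The count for CD4 SP against naive CD4 was 0 when any replicate pair was left out, and that for DP against naive CD4 was 0 when any DP pair was.

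**Figure D2:**
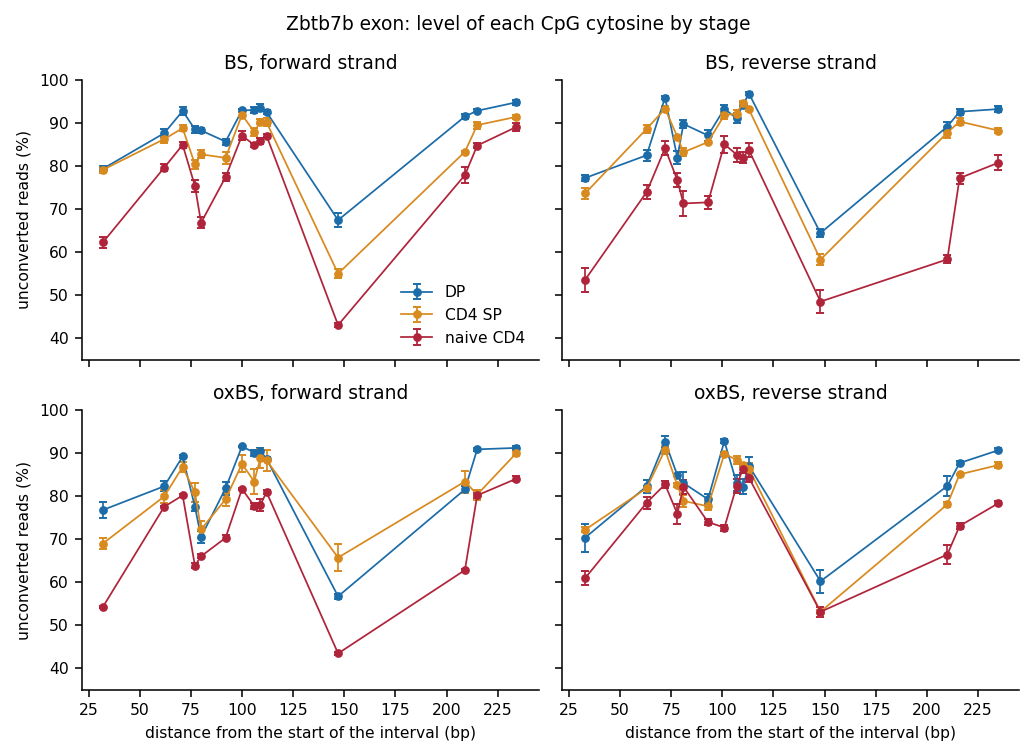
Share of unconverted reads (y axis, %) of each CpG cytosine by its distance from the start of the Zbtb7b interval (x axis, bp), for BS (top) and oxBS (bottom) on the forward (left) and reverse (right) strand. Points are means of 3 libraries with SD bars and lines join the cytosines of a stage; all 4 panels dip at CpG 11, and the naive CD4 line is lowest at nearly all cytosines.

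Levels along the exon were uneven and this unevenness was far larger than the spread between libraries. In DP the oxBS share had an SD of 9.21 points among the 28 cytosines and a median SD of 1.11 points between libraries. The lowest was the forward cytosine of CpG 11 with 56.0, 56.9 and 57.3%, and the highest the reverse cytosine of CpG 7 with 93.2, 92.4 and 92.9%. CpG 11 thus stood alone at about the middle of the interval, and its reverse cytosine was low as well, with 60.4, 57.6 and 62.8%. The 8 cytosines of the proline codons had the highest DP oxBS mean, 88.3% ± 0.825, above the 16 of the arginine codons at 82.1% ± 1.02 (SD, n = 3 libraries). The proline group also changed least between DP and naive CD4, by -8.66 points in BS and -7.76 in oxBS, against -14.2 and -10.3 points in the arginine group. These CpGs are neighbours in the interval, so position and codon cannot be told apart. Across the 28 cytosines the oxBS shares of DP and naive CD4 had a Pearson correlation of 0.826 and a Spearman correlation of 0.660, and of 0.667 and 0.575 without CpG 11. These cytosines share libraries and are not independent replicates.

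The size of the loss differed from cytosine to cytosine. The forward cytosine of CpG 1 had the largest change in 5mC. Its oxBS share was 79.1, 75.9 and 75.5% for DP, 67.8, 69.1 and 70.2% for CD4 SP and 53.9, 54.5 and 54.4% for naive CD4. The stages did not overlap, and the fall of 22.5 points from DP to naive CD4 was called by edgeR (adjusted p = 3.32e-15). In BS the same cytosine did not fall until after the CD4 SP stage, with 79.1, 79.1 and 80.1% for DP, 78.5, 80.0 and 79.1% for CD4 SP and 61.7, 61.4 and 63.8% for naive CD4. The DP and CD4 SP libraries of this assay overlapped (-0.248 points, edgeR adjusted p = 0.812).

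The next largest change in 5mC was at the reverse cytosine of CpG 7, the most methylated of the exon in DP. Its oxBS share went from 93.2, 92.4 and 92.9% in DP through 89.4 to 90.1% in CD4 SP to 73.5, 72.2 and 72.4% in naive CD4, and fell by 20.1 points (edgeR adjusted p = 4.83e-16). Its forward partner fell by 9.92 points. Both cytosines of CpG 12 followed. The forward one had 81.1, 81.1 and 82.6% for DP, 80.7, 84.0 and 85.7% for CD4 SP and 62.7, 63.2 and 62.6% for naive CD4 in oxBS, and fell by 18.8 points (edgeR adjusted p = 1.56e-12). The reverse one had 82.4, 80.2 and 84.7% for DP, 77.9, 78.7 and 77.7% for CD4 SP and 69.1, 65.2 and 65.1% for naive CD4, and fell by 15.9 points (edgeR adjusted p = 7.27e-11). CpG 12 thus lost 5mC on both strands, and in both the naive CD4 libraries lay below all others. Its reverse cytosine also had the largest fall in BS of the exon, from 90.5, 88.3 and 88.9% in DP to 59.0, 57.3 and 58.7% in naive CD4.

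At the other end, 2 reverse cytosines hardly changed in oxBS between DP and naive CD4. CpG 8 reverse had 82.6, 81.6 and 85.1% in DP and 84.2, 81.5 and 81.5% in naive CD4, and was higher in CD4 SP at 87.5, 89.0 and 89.1%. Its difference of -0.732 points between the end stages was smaller than the SD of either (edgeR adjusted p = 0.628). CpG 5 reverse had 83.6, 80.3 and 85.3% for DP, 77.5, 79.0 and 80.3% for CD4 SP and 84.1, 81.1 and 81.6% for naive CD4, a difference of -0.83 points (edgeR adjusted p = 0.621). Both fell in BS, CpG 5 reverse from 90.8, 89.9 and 88.8% to 74.2, 68.5 and 71.3%. CpG 9 reverse was the only cytosine called higher in naive CD4 than in DP by oxBS, with 83.6, 80.3 and 82.7% against 87.3, 86.1 and 85.7% (edgeR adjusted p = 0.000288), and in BS it too fell, by 12.2 points.

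Changes in BS and in oxBS were therefore not parallel from cytosine to cytosine. Across the 28 cytosines the Pearson correlation of the 2 changes between DP and naive CD4 was 0.147, which is a description over cytosines that share libraries. Cytosines with more BS minus oxBS in DP tended to lose more in BS (r = -0.550), although both of these measures contain the DP BS share.

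The next comparison asks where BS and oxBS differed within a stage, which is the estimate of 5hmC. Averaged over the 28 cytosines, the BS minus oxBS difference of the pairs was 5.52, 6.27 and 4.55 points for DP, 5.15, 3.34 and 3.47 for CD4 SP and 2.55, 1.79 and 2.49 for naive CD4. It was above 0 in 9 of 9 pairs, with a mean of 3.90 points (two-sided exact sign-flip permutation test, p = 0.00391). It fell by 3.17 points between DP and naive CD4 (two-sided exact permutation test over the stages, p = 0.0107, adjusted p = 0.0107). DP and naive CD4 pairs did not overlap, and CD4 SP lay between them, with its first pair inside the DP range. By strand, the difference between DP and naive CD4 was 0.255 points (forward) and -6.59 points (reverse). In naive CD4 the forward mean was 6.08 points, while the reverse pairs were -0.829, -2.27 and -1.49. The fall was thus one of the reverse strand, to values below 0, which are not possible 5hmC levels. The change over the 28 cytosines no longer passed without naive CD4 pair 2 (-2.93 points, exact permutation, adjusted p = 0.0536). The pairs are those of the library numbers, and when BS library 2 was instead paired with oxBS library 1 of its stage, the only libraries that covered chromosome 6, and BS library 1 with oxBS library 2, the same change had an exact permutation p of 0.0393. With libraries 2 and 3 of every group counted as 1 it was -3.12 points (exact permutation p = 0.0667).

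In DP the difference was positive in all 3 pairs at 25 of 28 cytosines, against a background of 82.8% of the 64, and negative in all 3 at 1 (background 9.38%). In CD4 SP it was positive at 24 (background 64.1%) and negative at 1 (background 28.1%), and in naive CD4 positive at 18 (background 34.4%) and negative at 7 (background 40.6%). The medians at Zbtb7b were 4.04, 4.33 and 2.25 points, against 7.92, 2.13 and -1.71 over all 64. The count test gave much the same split. edgeR called BS above oxBS at 25 and below it at 1 in DP (background 85.9% and 6.25%), at 22 and 1 in CD4 SP (background 54.7% and 28.1%), and at 14 and 6 in naive CD4 (background 31.2% and 45.3%). With at least 5 points in either direction required as well, 12 were called in DP (background 67.2%), 12 in CD4 SP (background 62.5%) and 13 in naive CD4 (background 51.6%). Those of naive CD4 included BS below oxBS at CpG 1 reverse (-7.38 points), CpG 5 reverse (-10.9) and CpG 12 reverse (-8.12). Those of CD4 SP included CpG 11 forward (-10.7), while the lowest difference in DP was -2.92 points. A negative difference is not a possible 5hmC level, and whether the positive differences hold an error of the same size was not tested. In naive CD4 all 7 negative cytosines were on the reverse strand.

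The highest DP value was at the forward cytosine of CpG 5, in an arginine codon. Its BS share was 88.0, 88.1 and 89.0% and its oxBS share 70.6, 69.2 and 71.9% in DP, which gave 17.3, 18.9 and 17.1 points (edgeR adjusted p = 1.13e-15). In CD4 SP the pairs gave 11.6, 9.91 and 9.84 points and in naive CD4 1.37, -0.983 and 1.98. The difference thus shrank stage by stage without overlap. Over the same stages the oxBS share went to 70.1, 73.6 and 73.3% (edgeR adjusted p = 0.184) and then fell to 65.5, 66.5 and 66.1% (edgeR adjusted p = 4.71e-05), whereas the BS share went to 81.7, 83.5 and 83.1% and then 66.9, 65.6 and 68.1%. Between DP and naive CD4 the BS share of this cytosine fell by 21.5 points and its oxBS share fell by 4.49 points.

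CpG 9 reverse followed with 10.7, 14.5 and 10.8 points in DP (edgeR adjusted p = 2.71e-14), 7.89, 6.63 and 7.54 at the CD4 SP stage and -3.97, -4.40 and -4.70 in naive CD4. It fell without overlap too, but past 0. CpG 4 forward had 9.90 to 12.2 points in DP (edgeR adjusted p = 3.09e-11), 0.834, -2.04 and -0.164 at the CD4 SP stage and 10.2, 11.9 and 12.6 in naive CD4, so that the middle stage was the low one. The lowest DP values were those of CpG 4 reverse, the partner of a high one, with -1.50, -2.66 and -4.61 points (edgeR adjusted p = 0.00908), and of CpG 2 reverse, with 1.34, 0.632 and -1.30 points (edgeR adjusted p = 0.638). CpG 4 thus held both one of the highest and the lowest DP values on its opposite strands. In the other stages CpG 4 reverse was positive, at 4.98, 4.37 and 3.63 points at the CD4 SP stage and 0.0705, 1.14 and 1.32 in naive CD4.

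CpG 11 forward, the cytosine with the lowest oxBS share in DP, changed the sign of BS minus oxBS between the thymic stages. Its BS share was 65.6, 68.5 and 68.3% in DP and 54.2, 54.6 and 56.3% in CD4 SP, while its oxBS share rose from 56.0, 56.9 and 57.3% to 62.2, 67.2 and 67.9% (edgeR adjusted p = 7.51e-06). BS minus oxBS was therefore 9.56 to 11.6 points in DP and -7.97, -12.5 and -11.7 in CD4 SP. In naive CD4 both assays read about the same, with 43.0, 43.6 and 42.5% in BS and 43.6, 43.1 and 43.7% in oxBS. The Pearson correlation of BS minus oxBS across the 28 cytosines was -0.0209 between DP and CD4 SP, -0.256 between CD4 SP and naive CD4, and -0.163 between the end stages, so cytosines high in one stage were not in general the high ones of another.

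**Figure D3:**
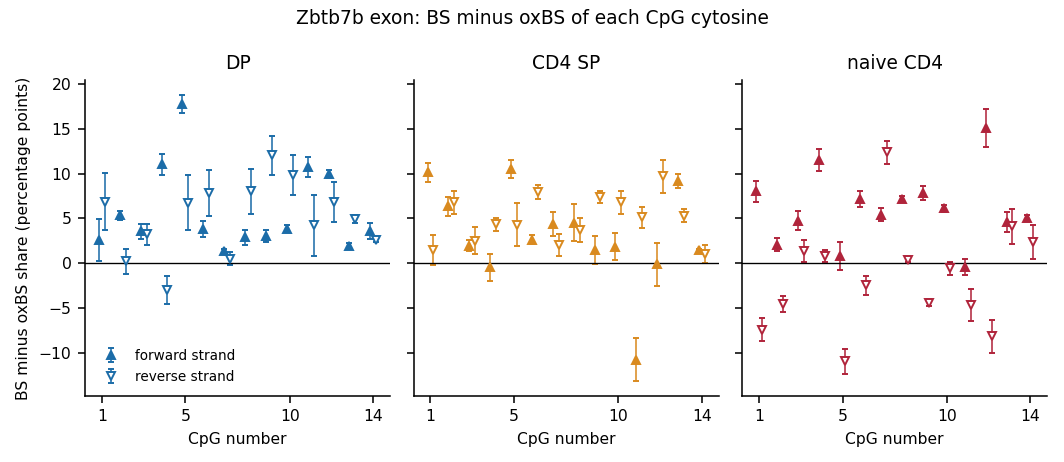
BS minus oxBS share (y axis, percentage points) of each CpG of the Zbtb7b interval (x axis, CpG number) by strand in DP, CD4 SP and naive CD4. Points are means of 3 pairs with SD bars; in DP all means but that of CpG 4 reverse are above 0, and in naive CD4 the forward cytosines stay near or above 0 while reverse ones reach -10.9.

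The last comparison within the exon asks whether the strands of the same CpGs followed the stages alike. They were alike in level and less so in change. Across the 14 CpGs the Pearson correlation of forward and reverse shares was 0.946 for DP, 0.942 for CD4 SP and 0.872 for naive CD4 for BS, and 0.825, 0.859 and 0.802 for oxBS. For BS minus oxBS the same correlations were -0.136, -0.222 and -0.0184, which were all below 0. For the change in BS they were 0.159 from DP to CD4 SP, 0.270 from CD4 SP to naive CD4 and 0.446 from DP to naive CD4, and for the change in oxBS -0.558, -0.0902 and 0.240. The CpGs share libraries, so these are descriptions with no test. Depth also parted by strand within libraries, with medians of 1451 read-outs (forward) and 765 (reverse) in DP oxBS library 3. In CD4 SP BS library 1 the medians were 2424.5 and 3417.5. Strand and the amplification of a strand cannot be told apart in these data.

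By strand, the forward BS share was 88.0, 88.7 and 89.3% for DP, 83.5, 84.6 and 84.7% for CD4 SP and 77.3, 77.1 and 78.4% for naive CD4, and the reverse one 88.6, 87.7 and 87.3%, 86.7, 85.8 and 86.4%, and 75.5, 72.2 and 73.0%. The forward oxBS share was 82.7, 82.5 and 83.4% for DP, 79.1, 82.1 and 82.4% for CD4 SP and 71.4, 71.3 and 71.9% for naive CD4, and the reverse one 82.9, 81.4 and 84.1%, 80.8, 81.7 and 81.8%, and 76.3, 74.5 and 74.5%. In naive CD4 the forward strand was thus the higher one in each BS library and the lower one in each oxBS library. The forward minus reverse difference of BS was 0.825 points for DP, -2.06 for CD4 SP and 4.04 for naive CD4, and differed between the stages (two-sided exact permutation test, adjusted p = 0.0107). That of oxBS was 0.0621, -0.265 and -3.57 points (two-sided exact permutation test, adjusted p = 0.0286), and that of BS minus oxBS 0.763, -1.80 and 7.61 points (two-sided exact permutation test, adjusted p = 0.0107). The oxBS result was lost without naive CD4 oxBS library 1 (-2.94 points between naive CD4 and DP, exact permutation, adjusted p = 0.0714) or library 2 (-3.84 points, exact permutation, adjusted p = 0.0643) and with replicate number as a blocking term (-3.63 points, exact permutation p = 0.0833). With libraries 2 and 3 of every group counted as 1, none of the 3 passed (exact permutation, adjusted p from 0.1 to 0.2).

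Strands of single CpGs parted further than the means. CpG 5 had the largest strand difference in oxBS in DP, with the forward cytosine -13.0, -11.2 and -13.5 points from the reverse one, and in naive CD4, with -18.6, -14.5 and -15.5, and it was also far apart in CD4 SP, with -7.33, -5.49 and -7.06. In BS its strands were closer, from -7.27 to 0.615 points over the 9 libraries. The forward cytosine of CpG 5 was thus below its partner in 9 of 9 oxBS libraries. CpG 9 had 6.23, 10.4 and 8.42 points in DP and the opposite sign in naive CD4, with -9.58, -9.33 and -6.18. CpG 4 was -6.89, -8.63 and -6.61 points apart in DP and -14.6, -11.2 and -10.3 in naive CD4. CpG 11 had the largest difference of CD4 SP, 9.27, 13.6 and 14.9 points, and was -10.8, -9.51 and -8.68 points apart in naive CD4. CpG 12, named after its values were seen, had the largest strand difference in BS, with 17.7, 19.7 and 21.4 points in naive CD4 after 0.458, 3.29 and 3.31 in DP. The oxBS differences given here were each larger than their SD over the 3 libraries. The median depth at these CpGs was 2314.5 to 2330.5 read-outs (forward strand) and 2423.5 to 2491 (reverse strand).

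**Figure D4:**
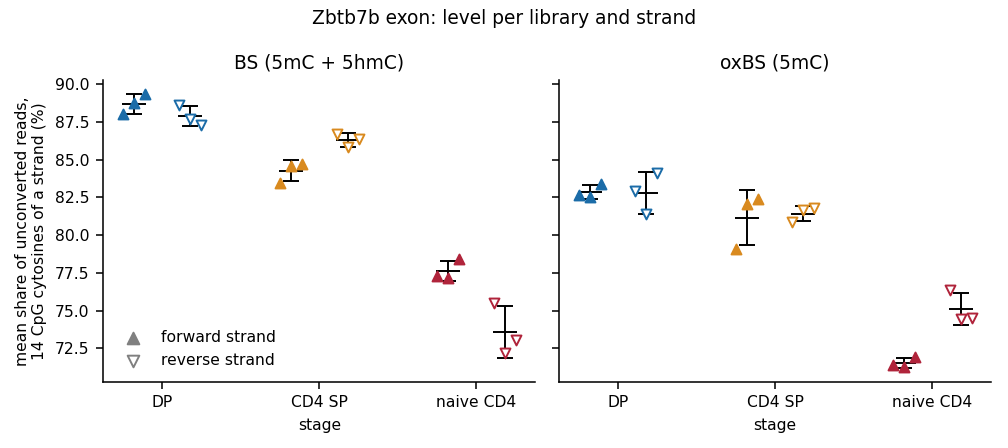
Mean share of unconverted reads (y axis, %, from 70 to 90) over the 14 forward (filled, upward triangles) or 14 reverse (open, downward triangles) CpG cytosines of the Zbtb7b interval in each library, by stage (x axis), for BS (left) and oxBS (right). Bars are the mean and SD of 3 libraries; in naive CD4 the forward triangles lie above the reverse ones in BS and below them in oxBS.

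The Zbtb7b exon lost less than the Prkcq and Il6ra loci, while the Pax5 locus had no clear loss. These other loci covered in every library lie in introns of Prkcq, which encodes protein kinase C theta, Il6ra, which encodes the interleukin 6 receptor alpha chain, and Pax5, a B-cell transcription factor. The Zbtb7b BS share stood 0.571 points above that of Prkcq in DP and 42.3 above it in naive CD4, a change of 41.7 points (two-sided exact permutation test, adjusted p = 0.00429). Against Il6ra it went from -6.61 to 62.8 points, a change of 69.4 (two-sided exact permutation test, adjusted p = 0.00429). Against Pax5 it went from 2.88 to -12.5 points, a change of -15.4 (two-sided exact permutation test, adjusted p = 0.00429). For oxBS the changes were 13.4 points against Prkcq and 37.6 against Il6ra (two-sided exact permutation test, adjusted p = 0.00429 each) and -9.46 against Pax5 (two-sided exact permutation test, adjusted p = 0.0143). In both assays the share of the exon thus fell less than those of Prkcq and Il6ra. It fell where that of Pax5 was 85.4% in DP and 88.1% in naive CD4 in BS, and 88.2 and 88.1% in oxBS. BS was below oxBS at Il6ra in CD4 SP (53.1 against 68.3%) and naive CD4 (12.8 against 27.2%). So it was at Prkcq in naive CD4 (33.3 against 40.4%) and at Pax5 in DP and CD4 SP (86.8 against 94.6% in CD4 SP). At their other stages BS was level with oxBS or above it. A sum of 5mC and 5hmC cannot be below 5mC, so the BS contrasts are not plain measures of retained modification. The Pax5 test in oxBS was lost with replicate number as a blocking term (exact permutation p = 0.0556 for the same -9.46 points), and all 6 with libraries 2 and 3 counted as 1 (exact permutation, adjusted p from 0.0800 to 0.2). The Pax5 locus holds 7 CpG cytosines, all on the forward strand and at a median of 421.5 read-outs, so the loci differ in depth and strand as well as in sequence.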

How the data were processed

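Genomic DNA of each cell isolation was split into 2 parts, of which 1 was oxidised with KRuO4, and both were bisulfite treated, amplified at chosen loci and sequenced on a MiSeq. Per the labels and the study's methods, the authors aligned reads to mm9 and lambda DNA with Bismark 0.7.12 and Bowtie2. The deposited files give, for each cytosine, the percent unconverted and the counts of unconverted and converted read-outs, with overlapping mates counted once and at least 10 read-outs per cytosine. The deposited percent values equal the ratio of the deposited counts, so shares were computed from the counts. Of all cytosines, those covered in the 18 libraries were used.

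Stages, assays and library numbers were taken from the sample labels. The methods state independent mice for each isolation. A library's level was the mean share of the 28 cytosines, each weighted equally. BS and oxBS libraries were paired by stage and number. These numbers were not shown to mark the same split DNA. With shares centred on group means, same-numbered BS and oxBS libraries of a stage had a mean correlation of 0.271 at the exon (9 pairs, from -0.219 to 0.651). Different numbers had -0.119 (18 pairs, from -0.606 to 0.451). Over all 64 cytosines the means were 0.0983 and -0.0418. BS library 2 and oxBS library 1 of each stage were the only libraries that covered chromosome 6, and pairing these was an alternative. Single values were compared between the stages by a two-sided exact permutation test of the F statistic (1680 arrangements). These p-values were adjusted by the Benjamini-Hochberg method over 3 tests for levels, 3 for strands and 6 for loci. Each covers the 3 stages together, also where only the difference between DP and naive CD4 is printed beside it. Single cytosines were tested with edgeR 4.0.16 (quasi-likelihood F test on unconverted and converted counts, limma 3.58.1, R 4.3.3) on all 64 CpG cytosines in 1 fit of 18 libraries, at an adjusted p under 0.05. The hierarchical model of the study was integrated numerically in Python 3.11.15 in place of sampling. It took conversion rates from the lambda controls of each library and an assumed oxidation efficiency of 0.9, within the range that the study reported. The edgeR and model scripts were tested on simulated data first. Sequence and gene models are those of NCBIM37.

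Named cytosines were the 4 largest and 2 smallest changes of the oxBS share between DP and naive CD4, the 3 highest and 2 lowest DP values of BS minus oxBS, the lowest and highest DP oxBS share, and in each stage the 2 CpGs with the largest strand difference in oxBS. The members and lists were chosen with earlier results of these data known. Alternatives were pooled read-outs, coverage minimums of 100 and 1000, conversion-corrected shares, single strands, limma on log2 ratios, a minimum change of 5 points, other oxidation efficiencies, a replicate block and leaving out each library.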

Additional observations from a re-analysis of the deposited data

Results flagged for a closer look

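The forward minus reverse difference of the exon changed between DP and naive CD4 by 3.22 points in BS, from 0.825 to 4.04, and is listed because the strands followed the stages differently (exact permutation, adjusted p = 0.0107). For oxBS the change was -3.63 points, from 0.0621 through -0.265 in CD4 SP to -3.57, in the opposite direction (exact permutation over the stages, adjusted p = 0.0286). For BS minus oxBS it was 6.85 points, from 0.763 through -1.80 in CD4 SP to 7.61 (exact permutation over the stages, adjusted p = 0.0107). Strand and the amplification of a strand cannot be told apart here.

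The change between DP and naive CD4 also differed between the exon and each other locus. In BS the exon's change exceeded that of Prkcq by 41.7 points and that of Il6ra by 69.4 points, and was -15.4 points from that of Pax5 (exact permutation, adjusted p = 0.00429 each). In oxBS the values were 13.4 points against Prkcq, 37.6 against Il6ra (exact permutation, adjusted p = 0.00429 each) and -9.46 against Pax5 (exact permutation, adjusted p = 0.0143). A positive value means that the share of the exon fell less than that of the other locus, and each p-value is over all stages. At some stage of each other locus BS was below oxBS, so the BS values hold a conflict between the assays.

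Outside the CpGs, 8 of 141 cytosines of the interval were above 1% unconverted in all 3 libraries of exactly 1 group and in no other library, a signal in data that no comparison used. The highest was the reverse cytosine at 89184922, with a mean of 3.19% in the naive CD4 oxBS libraries and at most 0.306% in the other 15.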

How the results depend on the processing

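Counting libraries 2 and 3 of every group as 1, an alternative chosen after seeing the data, left 90 arrangements and a smallest exact permutation p of 0.0667, so that no stage comparison could pass. The values between naive CD4 and DP were then -12.5 points in BS, -9.37 in oxBS and -3.12 in BS minus oxBS (exact permutation, adjusted p = 0.0667 each), 3.01, -3.90 and 6.92 for the strand differences of BS, oxBS and BS minus oxBS (exact permutation, adjusted p = 0.1, 0.2 and 0.1), 41.3, 67.2 and -15.2 against Prkcq, Il6ra and Pax5 in BS and 14.1, 37.2 and -9.32 in oxBS. The mean BS minus oxBS over the pairs stayed above 0 under it, at 4.03 points (exact permutation p = 0.0312). The sign of the BS minus oxBS change turned, to 0.255 points (exact permutation p = 0.0179), on the forward strand alone and with a coverage minimum of 1000, which keeps the same 14 cytosines. The replicate number was not shown to pair libraries across stages, since a correlation above 0.1 in every pair was required. For BS at the exon same-numbered libraries had a mean of 0.449 (9 pairs, from 0.0992 to 0.807) against -0.204 for different numbers. For oxBS the means were 0.196 (from -0.292) and -0.0915, and over all 64 cytosines those of same-numbered libraries were 0.153 for BS and 0.00165 for oxBS, with 8 of 18 libraries closest to their own number. With the replicate block the strand difference in oxBS (-3.63 points, exact permutation p = 0.0833) and the oxBS difference from Pax5 (-9.46 points, exact permutation p = 0.0556) no longer passed and no other call was lost. Leaving out 1 library or pair at a time gave -3.62 to -2.76 points for BS minus oxBS, which no longer passed without naive CD4 pair 2 (-2.93 points, exact permutation, adjusted p = 0.0536), and -4.12 to -2.94 for the strand difference in oxBS. The counts of Bayes factors above 1 were then 0 to 0 for CD4 SP against naive CD4 and 0 to 1 for DP against naive CD4. Both counts were 0 at a threshold of 3, and the first was 0 at an oxidation efficiency of 1. Requiring 5 points in either direction left 8 and 7 calls in BS and oxBS from DP to CD4 SP, against 53.1 and 43.8% of all 64. For BS against oxBS in DP, CD4 SP and naive CD4 it left 12, 12 and 13, against 67.2, 62.5 and 51.6% of all 64. In all, 78 of 102 results under other settings kept direction and call, 14 were weaker, 8 were counts that moved and 2 reversed; under a left-out library 177 of 189 kept them, 3 were weaker and 9 moved. A coverage minimum of 100 left 0 cytosines at Pax5. The depth of single shares limits differences between cytosines to a few points. The causes were not tested.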

Other observations

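In the exon, 12 non-CpG cytosines were above 1% unconverted in all 3 libraries of at least 1 group, which made 15 cases over 5 of the 6 groups. Of these cases 13 lay on the reverse strand, which holds 85 of the 141 non-CpG cytosines. The reverse cytosine at 89184925 was above 1% in 3 groups, with 5.28, 4.33 and 5.12% in CD4 SP oxBS, 2.26, 1.99 and 2.80% in CD4 SP BS and 1.79, 1.66 and 1.42% in naive CD4 BS. At non-CpG cytosines of the other loci, libraries of a group had a mean Pearson correlation of 0.530 at Prkcq, 0.807 at Il6ra and 0.483 at Pax5, against 0.837 at Zbtb7b.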
